A study of Mus musculus with 24 samples.

Results

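Of 98240 chromatin regions open in at least 1 of 5 stages of SOX9 reprogramming in vivo, 3254 (3.31%) lacked a peak at week (W)1 alone. These members were chosen by their peaks: the 5 in vivo lists were merged wherever peaks overlapped by at least 1 bp, and a region was kept when the W1 list had no peak in it and the D0, W2, W6 and W12 lists each had one. ATAC-seq, an assay in which the transposase Tn5 cuts open chromatin, was run on epidermal stem cells (EpdSCs) sorted from back skin from male CD1 mice of the genotype K14rtTA; TRE-myc-Sox9. All 5 in vivo groups carry both transgenes. The Krt14 promoter drives the transactivator rtTA in skin epithelium, and doxycycline (DOX) lets rtTA switch on myc-tagged Sox9. D0 cells came from mice at postnatal day 21 without DOX. Mice were then kept on DOX to day 28 (W1), day 35 (W2) or day 63 (W6), whereas W12 stands for grafts of newborn skin on Nude hosts, so that week and graft cannot be told apart. Cells were sorted as CD49f-high CD34-neg Ly6A-high after removal of CD31, CD45, CD117 and CD140a. Each group held 2 replicates, pooled per the methods from several mice each, and the authors joined them before calling peaks. There was thus 1 list per group, no spread between replicates and no test of a condition, and read depth is unknown.

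SOX9 is an HMG-box transcription factor that specifies hair follicle stem cells and is silent in EpdSCs of normal interfollicular epidermis. Pioneer factors such as SOX9 can bind sites in closed chromatin, and remodellers such as SWI/SNF move nucleosomes there. AP1 factors (JUN and FOS dimers) occupy many enhancers of epidermal cells. Distal enhancers change between cell states more often than promoters do. An in vivo peak was deposited with a normalized score, which the authors' threshold cut at 3 in every list, a fold enrichment over local background and a −log10 q.

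Several facts about the lists bear on the members. A peak in the third exon of Sox9, of which the transgene also holds the coding sequence, is itself a member: its score was 13.5 at D0, 15.1 at W2, 9.22 at W6 and 8.84 at W12, with no peak in the list labelled W1. A transgene read cannot be told apart from an endogenous one there. The third exon's peaks do not follow the labelled DOX order, but the rule that chose the members requires this. A region centred in the second exon (chr11:112783816-112784095), which is coding sequence too, is no member. It had an in vivo peak only at W12 (5.26), so it does not compare D0 with W1. Whether the D0 and W1 lists carry each other's labels was not tested. If they did, the members would be regions that lack a peak before DOX alone, so D0 and W1 stand below for the lists so labelled. The Sox9 promoter peak was called in all 5 lists (10.3 to 21.2). Promoter peaks of the epidermal stem cell markers were called for 6 of 7 genes in 4 lists and for 7 of 7 at W2, with a summed score of 78.9 to 115. Ly6a, the gene of a sort marker, had a promoter peak only at W2. None of the 3 leukocyte and 2 endothelial markers had a promoter peak in any list, and 1 of 2 fibroblast markers had one in every list (summed score 9.23 to 13.5; Col1a1 none). Of 3 melanocyte or mast cell markers, Mitf and Dct had one in every list (summed 78.7 to 128) and Kit had none. Hair follicle stem cell markers had a promoter peak for 3 of 5 genes at D0, W1 and W2 and for 5 of 5 at W6 and W12, where Cd34 and Lgr5 were added, and the summed score was 40.1 to 54.7. The part of such cells in the results was not tested.

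The central 200 bp are printed first for the 5 members with the highest lowest score over the 4 lists that hold a SOX, AP1, GATA or CTCF consensus, since these letters are compared between classes of region below. Here and below the sequence is GRCm38 (mm10), 5′ to 3′, each is named by its nearest protein-coding transcription start site (TSS), and capitals mark SOX, AP1, GATA and CTCF matches on either strand, with those of other motifs left in lower case. AP1 was searched as TGACTCA or TGAGTCA, each the reverse complement of the other, GATA as AGATAA or its reverse complement TTATCT, and SOX as ACAATAG or ACAATGG or their reverse complements CTATTGT and CCATTGT.
Gm11146 (chr16:77743886-77744085, plus strand): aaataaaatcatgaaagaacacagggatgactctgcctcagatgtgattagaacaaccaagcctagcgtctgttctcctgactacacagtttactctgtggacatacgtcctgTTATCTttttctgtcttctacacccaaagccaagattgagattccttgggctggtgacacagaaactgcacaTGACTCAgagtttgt
Ptcd2 (chr13:99271365-99271564, plus strand): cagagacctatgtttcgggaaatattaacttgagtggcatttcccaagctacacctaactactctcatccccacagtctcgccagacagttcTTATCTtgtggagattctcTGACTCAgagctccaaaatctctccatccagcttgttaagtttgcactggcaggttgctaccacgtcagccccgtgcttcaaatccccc
Spag11a (chr8:19167093-19167292, plus strand): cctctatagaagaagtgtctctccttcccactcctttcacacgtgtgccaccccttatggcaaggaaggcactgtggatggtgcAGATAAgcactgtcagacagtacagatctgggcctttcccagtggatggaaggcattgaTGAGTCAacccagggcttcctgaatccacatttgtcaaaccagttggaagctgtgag
Rassf9 (chr10:102659980-102660179, plus strand): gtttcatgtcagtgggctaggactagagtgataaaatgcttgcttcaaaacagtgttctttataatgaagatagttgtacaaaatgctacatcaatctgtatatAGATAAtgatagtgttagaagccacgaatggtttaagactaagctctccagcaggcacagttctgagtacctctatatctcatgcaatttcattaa
Commd9 (chr2:102034502-102034701, plus strand): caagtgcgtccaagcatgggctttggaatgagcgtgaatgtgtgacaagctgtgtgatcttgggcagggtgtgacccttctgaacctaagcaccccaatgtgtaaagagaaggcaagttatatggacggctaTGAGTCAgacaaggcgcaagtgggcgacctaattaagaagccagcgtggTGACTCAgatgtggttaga

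The region named for Gm11146 lies 141892 bp from that TSS in an intron of Mir99ahg (chr16:77743640-77744332). Its score was 20.1 at D0, 95.9 at W2, 66.9 at W6 and 42.3 at W12. Sets of 4 scores without labels follow that order. Both an AP1 and a GATA match were found in its centre, as in the intergenic region near Ptcd2 (chr13:99271149-99271780; 16.9, 26.8, 36.9 and 27.1). The Spag11a member (chr8:19166823-19167563), in an exon of the noncoding gene Gm39139, had 15.4 at D0, 72.4 at W2, 52 at W6 and 37.8 at W12. In all 3 the D0 score was the lowest of the 4. The intergenic Rassf9 member (chr10:102659653-102660506; 14.7 at D0 and 51.4, 32.1 and 28.2 at W2, W6 and W12) held 1 GATA match. The Commd9 member (chr2:102034319-102034884), in an intron of Ldlrad3, held 2 AP1 matches and scored 14.7, 34.8, 31.5 and 32.3 in the same order.

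The SOX consensus is the motif of the induced factor, and 4 members that hold it are therefore shown as well. Foxq1 and Nrg1 are among the members with this consensus that have the highest lowest score, and Grhl1 and Cebpb are those with the highest among keratinocyte identity genes.
Foxq1 (chr13:31327675-31327874, plus strand): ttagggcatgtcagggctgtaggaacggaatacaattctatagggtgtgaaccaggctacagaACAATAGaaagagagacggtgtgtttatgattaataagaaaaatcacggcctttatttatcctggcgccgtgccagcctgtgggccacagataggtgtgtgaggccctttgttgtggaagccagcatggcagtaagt
Nrg1 (chr8:32203172-32203371, plus strand): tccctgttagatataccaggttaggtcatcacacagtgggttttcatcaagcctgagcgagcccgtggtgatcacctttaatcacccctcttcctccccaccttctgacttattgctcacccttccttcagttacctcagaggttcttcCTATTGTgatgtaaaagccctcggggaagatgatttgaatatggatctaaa
Grhl1 (chr12:24592192-24592391, plus strand): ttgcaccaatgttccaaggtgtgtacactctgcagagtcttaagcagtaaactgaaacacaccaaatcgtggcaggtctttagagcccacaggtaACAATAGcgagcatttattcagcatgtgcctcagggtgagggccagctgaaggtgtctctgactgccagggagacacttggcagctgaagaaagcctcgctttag
Cebpb (chr2:167808859-167809058, plus strand): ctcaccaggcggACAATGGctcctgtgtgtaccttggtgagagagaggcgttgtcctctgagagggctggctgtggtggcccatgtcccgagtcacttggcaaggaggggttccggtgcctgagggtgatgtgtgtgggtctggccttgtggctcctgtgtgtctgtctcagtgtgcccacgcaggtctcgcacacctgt

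Grhl1 encodes a grainyhead-like factor of the epidermal barrier. Its intronic member (chr12:24591960-24592624, 11543 bp from the TSS) had a score of 6.83 at D0, 55.2 at W2, 40.1 at W6 and 38.6 at W12. Cebpb encodes a factor of keratinocyte differentiation, and the intergenic member 120044 bp from its TSS (chr2:167808582-167809336) scored 6.5, 58.5, 36.8 and 24.2. The D0 scores of these regions were thus far under those of W2. In culture the Cebpb region had no peak without DOX and a score of 24.9 with wild-type SOX9. The Grhl1 region had a culture peak both without DOX (13.9) and with wild-type SOX9 (44.4). The Foxq1 member (chr13:31327424-31328125) likewise scored 11.9 at D0 and 82.6, 53.3 and 47.5 later. It too had a culture peak without DOX (13.7) and with wild-type SOX9 (58). In the Nrg1 intron (chr8:32202930-32203613), within the gene of an ERBB receptor ligand, the order differed. The score was 10.8 at D0, 17.5 at W2, 22.9 at W6 and 30.7 at W12. In culture this region had a peak without DOX (7.26) and none with wild-type SOX9.

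By score, members had weak D0 peaks and stronger peaks from W2 on. By −log10 q, of these later lists only W12 was above D0 in most members. These values chose the members and are given as a description, with no test. The median score was 4.65 at D0 (quartiles 3.68 and 6.25), 9 at W2 (5.73 and 15.5), 10.3 at W6 (6.47 and 16.8) and 9.53 at W12 (5.79 and 15.6). D0 was the lowest of the 4 lists in 2298 members (70.6%) and the highest in 134 (4.12%). The highest score fell at W2 in 1127, at W6 in 1056 and at W12 in 937 members, so no later stage dominated. In the 37116 static regions, which had a peak in all 5 lists, the 5 medians lay between 14.5 (W6) and 16.7 (W1), with 15.7 at D0.

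**Figure D1:**
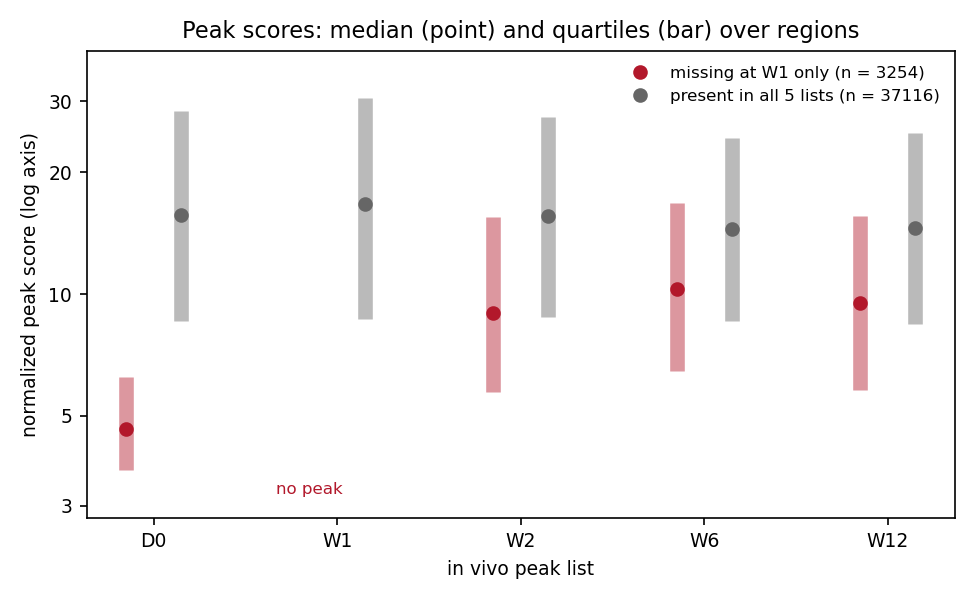
Normalized peak score (log axis) in each in vivo list for the 3254 regions missing at W1 only and the 37116 static regions, with points at the median and bars from the lower to the upper quartile over regions. The members' median was 4.65 at D0 and 9 to 10.3 at W2, W6 and W12, while that of the static regions stayed between 14.5 and 16.7.

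Region by region, the W2 score exceeded the D0 score in 2685 of 3254 members (82.5%), with a median ratio of 1.87, and in 17332 of 37116 static regions (46.7%), with a median ratio of 0.967. At W6 the members' median ratio to D0 was 2.11 and at W12 it was 1.89. Between the later lists the median ratio was close to 1 (1.07 for W6 over W2 and 0.965 for W12 over W2), but single members went both ways: from W2 to W12 the score at least doubled in 482 (14.8%) and fell to 50% or less in 479 (14.7%), against 5.24% and 8.37% of static regions. The score at least doubled from D0 to W2 in 1496 members (46%) and fell to 50% or less in 41 (1.26%). In static regions 8.73% at least doubled.

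The direction from D0 to W2 and to W6 depended on the scale. By fold enrichment the members' median was 6.69 at D0, 6.93 at W2, 7.27 at W6 and 7.28 at W12, and the W2 value was the higher in 58.9% of members, against 25.2% of static regions. By −log10 q, which grows with depth, the members' median was 23.5 at D0 and 16.3 at W2, and W2 was the higher in 31.8%, against 4% of static regions. On that scale W6 was above D0 in 48.5% of members (median ratio 0.971) and W12 in 69% (1.4). Set against the static median of the same list, the members stood lowest at D0 on all 3 scales. Their median score was 29.7% of the static one at D0 and 57.5% at W2, their fold enrichment 64.2% and 78.7%, and their −log10 q 28% and 54.6%.

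A list lacks weak regions more often than strong ones, so the share missing was compared at equal score. Of 40370 regions present in the other 4 lists, 8.06% had no W1 peak (95% Wilson interval 7.8 to 8.33%), which is the background for the members and equals their own count by construction. The share was 3.23% for D0, 4.65% for W2, 3.36% for W6 and 2.74% for W12. Where the lowest score in the other 4 lists was 3 to 4, 28% lacked a W1 peak (1497 of 5352), against 15.9% for D0 and 20.1% for W2. At 5 to 7 the share was 11.1% for W1, 1.95% for D0 and 4.16% for W2. At 10 to 15 it was 1.33% for W1 (84 of 6325), 0.0329% for D0 (2 of 6075) and 0.132% for W2 (8 of 6047). W1 was thus the list most often missing at each of these levels of score. With a common minimum of −log10 q in all lists, however, more regions lacked W2 alone (3870) than W1 alone (2517), so the rank of W1 held for the score and not for that scale.

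**Figure D2:**
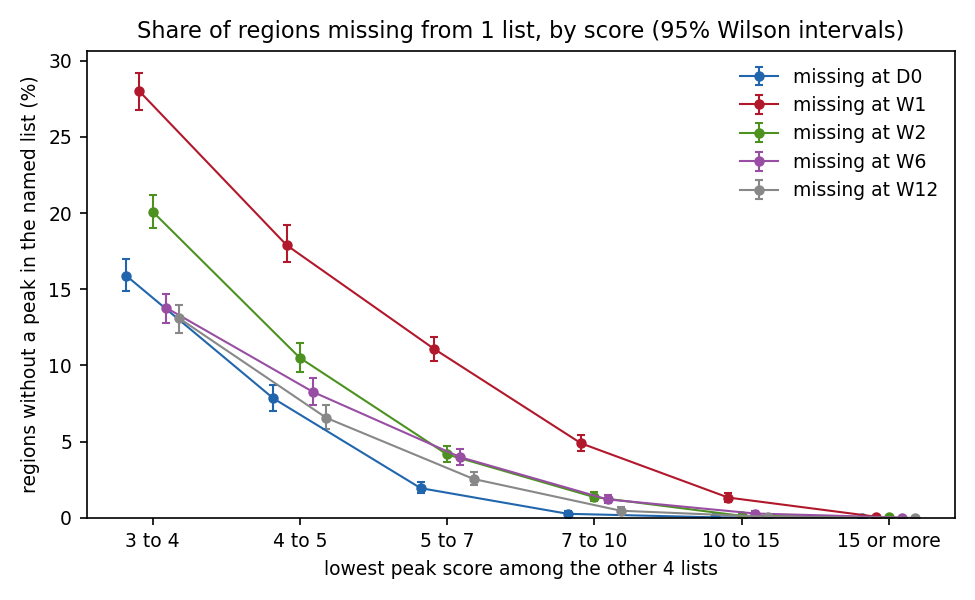
Share of regions without a peak in 1 named list (y axis, %) by the lowest peak score in the other 4 lists (x axis), with 95% Wilson intervals for counting error. The W1 curve runs above the others from 28% at scores of 3 to 4 down to 1.33% at 10 to 15.

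The members were mostly weak but not only so. The lowest score over the 4 lists had a median of 4.13, was at least 5 in 1062 members (32.6%), at least 10 in 94 (2.89%) and at least 15 in 10. In static regions the lowest of 5 scores was at least 10 in 47.3%. Members were narrower, with a median width of 556 bp against 783 bp. The nearest W1 peak was 6462 bp away at the median and 29 bp at the closest, and 215 members (6.61%) had one within 500 bp. Of the 5 members just inside the limit, the Abcc1 one scored 3, 4.42, 7.24 and 7.11 in the order D0, W2, W6 and W12. Just outside, 5 static regions had a W1 score of 3. That near Tead4 also scored 3 at D0 and 18.52 to 27.26 from W2 on, whereas those near Ddn (3.30 at D0, then 3.45 to 4.05) and Rgma (4.04, then 3.94 to 5.74) were flatter. The 1592 static regions with a W1 score under 4 had median scores of 5.43 at D0, 7.7 at W2, 8.94 at W6 and 8.03 at W12, and so resembled the members in level and order.

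The strongest member of all lay 53643 bp from the TSS of Jun, which encodes an AP1 subunit, in an intron of the antisense gene Junos (chr4:95105227-95106502). Its score was 32.6 at D0, 64.3 at W2, 55.1 at W6 and 69.8 at W12, with no W1 peak. Next came an intergenic region 10167 bp from Sdc1, the gene of the heparan sulphate proteoglycan syndecan-1 (chr12:8760647-8761665; 21.5, 47.1, 37.7 and 53.2). Both had peaks in culture without DOX, of 22.9 and 74.1. A region 96150 bp from Serbp1 (chr6:67170195-67170752) had its lowest score at W6 (22.3 at D0, 39.3 at W2, 21.3 at W6 and 30.7 at W12), as did one in a Zfp704 intron (chr3:9497149-9497733; 18.2, 19.4, 16.4 and 21.2). The Lrrc20 region (chr10:61464956-61465446) scored 22.6 at D0 and 16.2, 19.8 and 27.3 later. The Slc10a2 region (chr8:6608692-6609400), 1503695 bp from that TSS, scored 19.8, 78, 50.9 and 40.9 and had a culture peak only with wild-type SOX9 (24.7). The Igfbp7 region (chr5:77581030-77581810) scored 16, 56.7, 38.9 and 24.8. The other 3 of the 10 strongest members are printed above, and in all 10 the nearest TSS was at least 9307 bp away.

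Members were more often distal than static regions. A TSS lay within 1 kb of the centre of 244 members (7.5%), against 15.2% of all in vivo regions and 31.3% of static regions, the latter a difference of −23.8 percentage points (95% Newcombe interval −24.8 to −22.8). Such intervals, here and below, cover counting error over regions alone, which are not replicates, and they compare lists, not conditions. The centre lay in an intron in 52.3% of members and between genes in 40.7% (49.1% and 39.8% of all in vivo regions), and in an exon in the rest (2.34% coding, 4.73% other). More than 50 kb separated 36% of members from any TSS, against 31.2% of all in vivo regions, 22.3% of static regions and 28.1% of the 1809 regions missing at W2 only. Regions missing at W12 only (35.6%) and at W6 only (32.4%) were closer to the members. The 7854 regions gained by W2 and kept, which lacked a peak at both D0 and W1, were farther out, with 3.25% within 1 kb and 40.1% beyond 50 kb. Regions missing at W2 only had a TSS within 1 kb in 7.74% and those missing at D0 only (1237 regions) in 8.65%. Both differences from the members had intervals that held 0. Regions missing at W6 only (5.03%) and at W12 only (13.3%) lay on either side of the members. The centres were poorer in G and C, with a median of 49.5% against 53.5% in static regions and 48% to 51.5% in regions missing from 1 other list. By chromosome (1 to 19 and X), the share without a W1 peak ran from 6.35% on chromosome 7 to 10.2% on chromosome 18.

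The SOX and AP1 consensus sequences set the members apart from the static regions. Matches were sought on both strands in the central 200 bp. The SOX consensus stood in 232 members (7.13%), against 3.14% of static regions (difference 3.99 points, 3.14 to 4.94), 4.12% of regions missing at D0 only (3.01, 1.5 to 4.36) and 2.38% of regions missing at W2 only (4.75, 3.59 to 5.87). In all in vivo regions it stood in 5.33%. Regions gained by W2 and kept held it more often (12.2%; −5.07, −6.18 to −3.9). The AP1 consensus stood in 959 members (29.5%), against 15.8% of static regions (13.7, 12.1 to 15.3), 14.2% missing at D0 only (15.2, 12.7 to 17.7), 23% missing at W2 only (6.48, 3.95 to 8.94) and 26.9% gained by W2 and kept (2.62, 0.786 to 4.48). Its share in all in vivo regions was 19.6%. Both consensus sequences stood together in 2.06% of members and in 0.507% of static regions. A match is a run of letters and not evidence of binding.

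**Figure D3:**
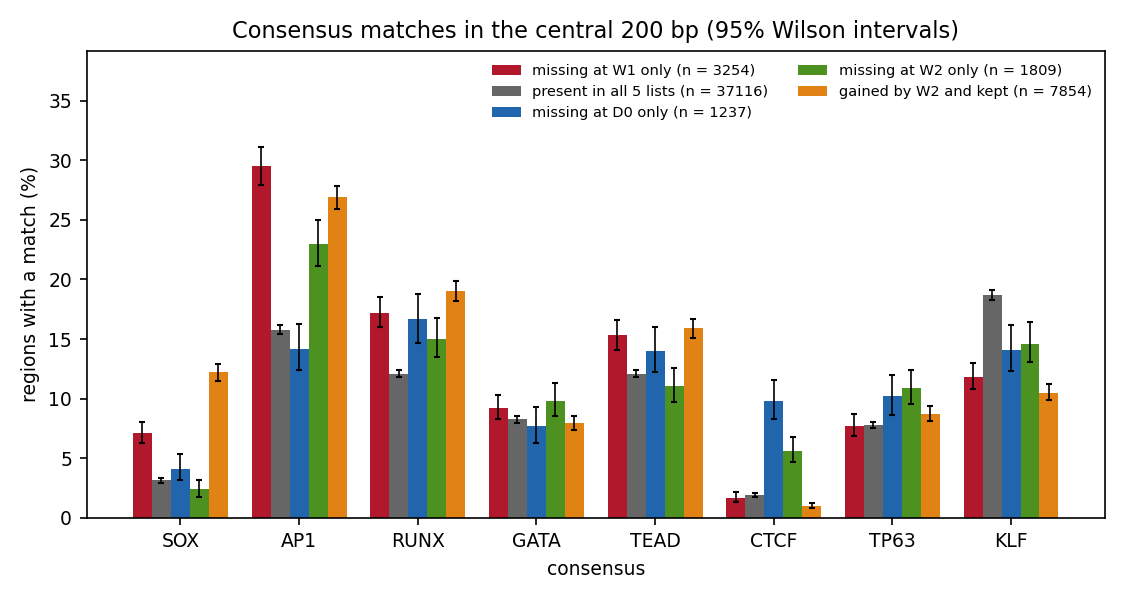
Share of regions (y axis, %) with a consensus match in the central 200 bp, for 8 consensus sequences (x axis) in the members and 4 other classes of region, with 95% Wilson intervals. The members stand at 7.13% for SOX and 29.5% for AP1, above the static regions at 3.14% and 15.8%.

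Of the other consensus sequences, some stood above static regions and some below, and others had differences whose intervals held 0. RUNX (TGTGGT) stood in 17.2% of members and 12.1% of static regions (5.1, 3.79 to 6.47), and TEAD (GGAATG) in 15.3% and 12.1% (3.23, 1.98 to 4.55). In all in vivo regions they stood in 14.9% and 13.8%. Over regions missing from 1 other list or gained by W2 and kept, RUNX ran from 11.4% to 19% and TEAD from 11.1% to 18.5%. GATA stood in 9.22% and 8.25% (0.967, −0.0213 to 2.05), against 10.5% of all. The CTCF consensus, of the insulator protein, stood in 55 members (1.69%), against 1.9% of static regions (−0.215, −0.63 to 0.306) and 2.39% of all. It stood in 9.78% of regions missing at D0 only (−8.09, −9.92 to −6.48) and 5.64% missing at W2 only (−3.95, −5.17 to −2.85). Regions missing at W6 only (2.4%) and at W12 only (2.97%) were closer to the members. With a common minimum of −log10 q the CTCF share was 0.636% in members and 1.12% in the 89 regions then missing at D0 only. So few regions cannot size the gap on this scale, and it was not shown there. It was 1.27% against 6.77% with a score of at least 5, and 0.942% against 6.16% with lists of equal length. KLF (CCACACCC, CCACGCCC, CCCCACCC or CCCCGCCC) was less frequent in members than in static regions, at 11.8% and 18.7% (−6.84, −7.98 to −5.62; all regions 14.2%), as was ETS (CCGGAAGT) at 0.154% and 1.55% (all regions 0.743%). NFY (CCAATCA or CCAATCG, and CCAATGA or CCAATGG) stood in 7.56% and 8.83% (−1.27, −2.18 to −0.271; all 7.75%). TP63 (7.74% and 7.8%; all 8.87%), TBX (AGGTGTGA, 1.38% and 1.1%; all 1.3%) and GRHL (AACCNGGTT, 0.215% and 0.191%; all 0.185%) had differences whose intervals held 0. The low KLF and ETS shares were not particular to the members. Over regions missing from 1 other list or gained by W2 and kept, KLF ran from 10.5% to 14.7% and ETS from 0.0808% to 0.383%. A match that overlapped one of another motif was found in 2 of 232 SOX, 55 of 959 AP1, 2 of 300 GATA and 1 of 55 CTCF members. Such overlaps made up a larger part for TBX (9 of 45 members, 8 with AP1), KLF (46 of 385, 40 with RUNX) and RUNX (58 of 560).

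The members were not uniform, and the SOX consensus went with the size of the score gain. The W2 score was under the D0 score in 569 members, of which 3.87% held it (95% Wilson interval 2.57 to 5.78%). It stood in 4.46% of the 1189 members with a W2 score of 1 to 2 times that at D0, in 8.71% of the 953 at 2 to 4 times, and in 13.6% (11 to 16.8%) of the 543 at 4 times or more. A TSS within 1 kb went the other way, from 13% (10.5 to 16%) to 9.17%, 5.25% and 2.03% (1.13 to 3.59%). GATA was at 8.08%, 8.83%, 9.44% and 10.9%, with intervals that overlapped. AP1 stood in 30.4%, 28.5%, 32.6% and 25%. This split was made with the scores known and is a description. By lowest score, an AP1 match stood in 27.2% of members under 4 and in 40.4% (31.1 to 50.5%) of the 94 at 10 or more. The SOX share had no such order: it was 7.01% under 4, 5.61% at 4 to 5, 8.78% at 5 to 10 and 3.19% (3 of 94; 1.09 to 8.97%) at 10 or more, an interval that holds the 7.13% of all members.

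**Figure D4:**
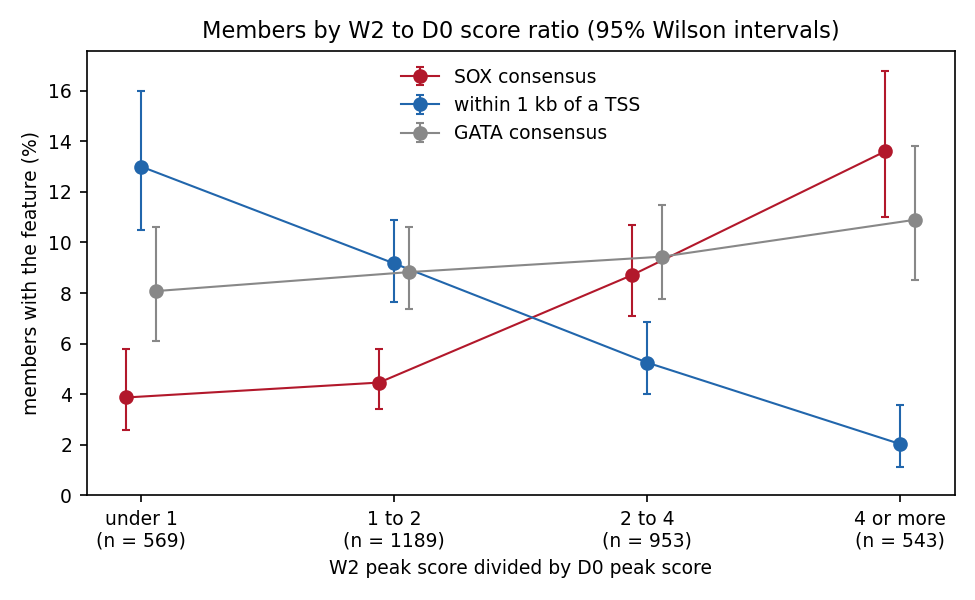
Share of members (y axis, %) with a SOX consensus, a GATA consensus or a TSS within 1 kb, by the W2 score divided by the D0 score (x axis), with 95% Wilson intervals. The SOX share goes from 3.87% to 13.6% while the share near a TSS goes from 13% to 2.03%.

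The culture lists played no part in the choice of members. They come from keratinocytes of back skin kept without DOX (noDOX) or with DOX at 1 µg per ml, each arm again 1 list from 2 replicates. Per the methods, primary epidermal cells for culture were isolated from newborn male pups. By its label, the WT-SOX9 list was taken sooner after DOX than the W1 list. The DOX arms expressed the whole protein (WT-SOX9), a form lacking the HMG domain that binds DNA (dHMG-SOX9) or the transactivation domain (dTA-SOX9), the dominant-negative FOS called AFOS, SOX9 with AFOS, or SOX9 with the SWI/SNF subunit ARID1a. Labels give these as K14rtTA; with TRE-myc-Sox9, TRE-myc-Sox9noHMG, TRE-myc-Sox9noTA, TRE-FLAG-AFOS, or the pairs TRE-myc-Sox9; TRE-FLAG-AFOS and TRE-myc-Sox9; TRE-ARID1a. Per the methods the SOX9 versions came by lentivirus. AFOS and ARID1a did too, but in the combined arms the cells already carried the Sox9 transgene, so these arms also differ from WT-SOX9 in how SOX9 was supplied. The noDOX list comes from the WT-SOX9 cells without DOX and served here as the control of every arm, so the comparisons share it, and in each of the other 5 arms the construct differs from noDOX along with DOX.

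Without DOX, 1611 members (49.5%) had a peak, against 45.4% of all in vivo regions, 75% of static regions (difference −25.4 points, −27.2 to −23.7) and 37.3% of regions gained by W2 and kept (12.2, 10.2 to 14.2). The shares for regions missing at D0 only (52.2%) and at W2 only (47.7%) differed from the members' by intervals that held 0. The members' share was 43.1% with WT-SOX9, 42.9% with dHMG-SOX9, 46.4% with dTA-SOX9, 44.3% with AFOS and 45.1% with SOX9 and ARID1a. All in vivo regions stood between 41.7% and 43.1% in these 5 lists. The members' share was lowest, at 33.1%, with SOX9 and AFOS, the list in which all in vivo regions were lowest too (39.9%). There, regions missing at W6 only stood at 23.5% and those missing at W12 only at 28.4%, under the members. Regions gained by W2 and kept stood at 36.6% (−3.58, −5.5 to −1.63), those missing at W2 only at 37.8% (−4.69, −7.45 to −1.94), those missing at D0 only at 54.6% (−21.6, −24.8 to −18.4) and static regions at 67.7% (−34.6, −36.3 to −32.9). Peak names say that fragments were the input for SOX9+ARID1a, SOX9+AFOS and AFOS, which those of the other lists do not, and the part of this in the result was not tested. No culture list had a peak in 33.6% of members, and all 7 had one in 18.2%, against 38.2% and 24.3% of all in vivo regions and 16% and 51.8% of static regions.

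**Figure D5:**
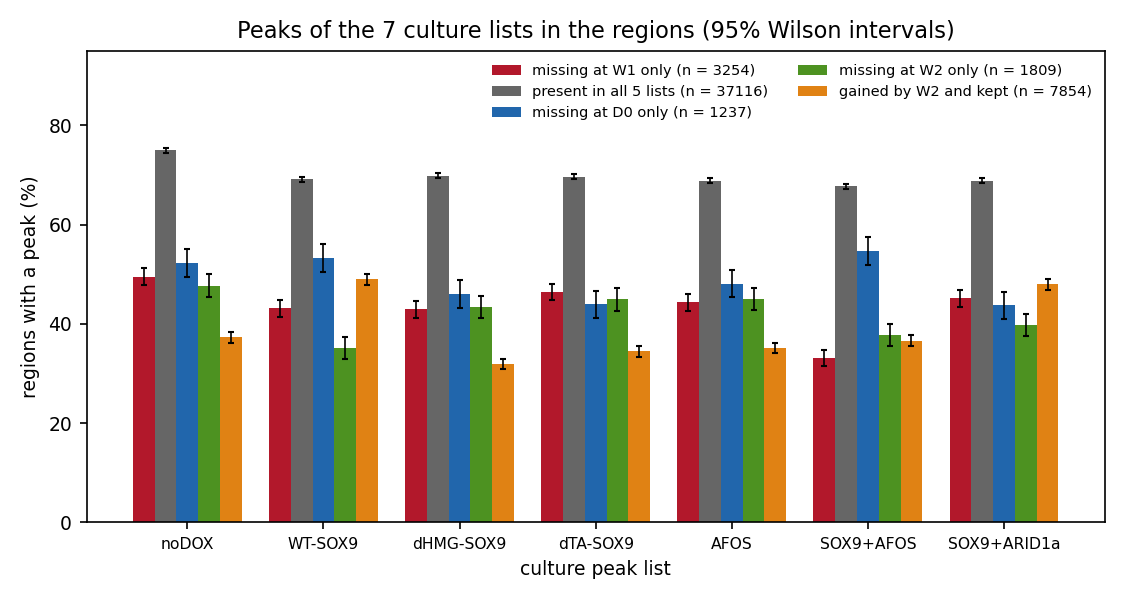
Share of regions (y axis, %) with a peak in each of the 7 culture lists (x axis), in the members and 4 other classes of region, with 95% Wilson intervals. The members range from 33.1% with SOX9+AFOS to 49.5% with noDOX, under the static regions in every list.

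Opened regions are those with a peak in an arm and none in noDOX, and closed regions the reverse. Of 1643 members without a noDOX peak, WT-SOX9 opened 239 (14.5%, 12.9 to 16.3%), where 11.8% of all in vivo regions without one were opened. Regions missing at D0 only were opened in 21.2% (members minus these −6.6 points, −10.4 to −3.02), those missing at W2 only in 9.4% (5.15, 2.55 to 7.61) and those gained by W2 and kept in 32.5% (−17.9, −20 to −15.7). Among the other arms, dHMG-SOX9 opened 6.57% of the same 1643 members and 5.9% of all in vivo regions without a noDOX peak, dTA-SOX9 11% and 8.88%, and AFOS 9.13% and 8.67%. SOX9 with AFOS opened 12.4% and 13.1%, and SOX9 with ARID1a 12.7% and 11.2%. Within the members, WT-SOX9 opened 30% (24.9 to 35.6%) of those without a noDOX peak whose W2 score was at least 4 times that at D0. It opened 7.27% (4.8 to 10.9%) of those whose W2 score was under that at D0. This split too was made with the scores known and is a description, without the same split of other regions. Of 1611 members with a noDOX peak, WT-SOX9 closed 449 (27.9%), against 21% of all in vivo regions with one, 11.9% of static regions (16, 13.8 to 18.2) and 36.7% missing at W2 only (−8.79, −12.7 to −4.92). SOX9 with AFOS closed 45.9% (43.5 to 48.3%) of these members, 28% of all in vivo regions and 15.7% of static regions. The share was 44.3% in regions missing at W6 only, 41% in those gained by W2 and kept and 38.6% in those missing at W2 only. A high share was thus not particular to the members. It was lower in regions missing at W12 only (30.4%) and at D0 only (21.2%). AFOS alone closed 19.8% of members, 15.9% of all in vivo regions and 11.5% of static regions, and 19.8% to 40.6% of the regions missing from 1 other list or gained by W2 and kept.

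Genes were assigned by the nearest TSS, which does not show that a region acts on the gene. The members fell to 2410 genes, of which 1836 had 1 member. Jag1, a NOTCH ligand, and Pdzrn3, a ubiquitin ligase, had the most, with 8 each of 64 and 42 regions. Sox9 had 7 of 103, Tcf4 (a basic helix-loop-helix factor) 7 of 48, and Adgrl2 (an adhesion receptor) 6 of 108. Ext1 had 6 of 48 and Shroom3 6 of 34. Of the Jag1 members the strongest at W6 lay 378608 bp from the TSS (chr2:137494906-137495598) and scored 4.47 at D0, 48 at W2, 50.9 at W6 and 34.5 at W12. It had peaks in culture both without DOX (36.4) and with WT-SOX9 (48.2). At Pdzrn3 a member covered the promoter (chr6:101377073-101378197), with 3.3, 3.54, 15.9 and 6.72, and with 10.5 without DOX and 35.1 with WT-SOX9. Besides the exon, 6 distal members stood near Sox9, 14608 to 577939 bp from its TSS, with D0 scores of 3.3 to 3.67 and W2 scores of 7.15 to 14.7. One of them (chr11:112766997-112768235) held a SOX match and scored 3.67 at D0, 13.3 at W2, 16 at W6 and 7.84 at W12. At Adgrl2 a region 393678 bp away (chr3:148428840-148429761) scored 5.95, 53.4, 42.1 and 23.8 and had a culture peak with WT-SOX9 (48) and none without DOX.

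By gene list, the share of regions that were members is read against the 3.31% of all in vivo regions. It was 2.85% (16 of 562) for epidermal and keratinocyte identity genes, the list of GATA3, TRP63 and the keratins. Besides Grhl1 and Cebpb, a Gata3 member (chr2:9662011-9662655) with an AP1 match scored 8.77 at D0, 20.6 at W2, 19.5 at W6 and 20.7 at W12, and another (chr2:8928543-8928969) 7.83, 27.2, 12 and 12.3. Krt14 and Trp63 had 2 members each. For hair follicle stem cell and outer root sheath genes the share was 4.68% (25 of 534; interval 3.19 to 6.82%), with Sox9 at 7, Nfib at 4 and Fst at 3. There, a region near Gas1 (chr13:60207105-60207735) scored 6.12, 39.1, 20.1 and 22.2, and one near Fst (chr13:114512969-114513443), the gene of the activin inhibitor follistatin, 5.56, 13.6, 6.42 and 12.8. The Nfix one, 1711 bp from the TSS, scored 5.66, 5.54, 9.13 and 9.25.

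Shares of the signalling lists ran from 2.77% to 5.85%, and differences between lists were not tested. Of Notch pathway regions 4.88% were members (14 of 287), 8 of them at Jag1. Rbpj, the DNA-binding effector of NOTCH, had 1 in an intron (chr5:53490518-53491223) with 5.14 at D0, 12.8 at W2, 28.6 at W6 and 31.1 at W12, and Maml3, a coactivator, had 3, of which 1 (chr3:52184142-52184648) scored 16.7, 12.5, 7.18 and 22.2. EGF receptor pathway regions were members in 5.85% (10 of 171; 3.21 to 10.4%). Egfr itself had 3, the strongest in an exon of the antisense gene Egfros (chr11:16817200-16817730; 8.74, 17.4, 12.6 and 23.7), and the ligand genes Areg, Btc, Epgn, Ereg and Tgfa had 1 each. The Tgfa one (chr6:86251616-86253150) scored 5, 36.4, 20.6 and 7.63. In the Hedgehog pathway (3.98%, 7 of 176), Gpr161, a receptor that restrains it, had 2 members, of which 1 (chr1:165316273-165316929) scored 9.16, 21, 26.4 and 17.1. The transcription factor gene Gli3 had 3, of which 1 (chr13:15444308-15444839) scored 7.89, 13.1, 16.2 and 12.9. In WNT signalling (2.77%, 10 of 361) a member lay in Axin2 (chr11:108925190-108925684), a negative regulator and target, and was nearly level at 7.39, 7.78, 6.47 and 5.15, and Lef1 had 3. In TGF-beta and BMP genes (3.59%, 15 of 418) a region near Nog (chr11:89248551-89249230), the gene of a BMP inhibitor, scored 7.02, 51, 34.8 and 29.4.

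Among genes of transcription and cell growth, RUNX and GATA factors had 13 of 283 regions (4.59%), among them Runx1 and Runx2 with 4 each. A Runx1 intron (chr16:92620670-92621595) scored 7.67 at D0, 14.4 at W2, 16.4 at W6 and 25.4 at W12. SWI/SNF genes had 7 of 157 (4.46%), 3 of them near Arid2, where the strongest (chr15:96107283-96108185) scored 14.1, 34.9, 27.7 and 17. Cell cycle genes had 16 of 272 (5.88%; 3.65 to 9.34%), led by Myc with 5 and E2f3 with 3, and a region near Mycn (chr12:12715179-12716352) scored 14.8, 35.7, 26.5 and 10.8. AP1 and stress factor genes had 4 of 137 (2.92%), 3 at Jun and 1 at Nfe2l2. Adhesion lists were lowest, with 5 of 228 (2.19%, 0.94 to 5.03%) for integrins and basement membrane and 4 of 213 (1.88%, 0.733 to 4.73%) for desmosomes and junctions. Both intervals held the 3.31% of all in vivo regions. Their Itgb6 member (chr2:60719757-60720746), near an integrin subunit of activated epidermis, scored 5.5, 18.4, 16.3 and 12.7, and the Ocln one (chr13:100551190-100551779), 996 bp from the TSS of a tight junction gene, 4.7, 7.18, 18.2 and 6.43.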

How the data were processed

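ATAC-seq was done in 24 mouse samples, 12 groups of 2. The authors mapped read pairs to GRCm38 with PEPATAC (from the methods), joined both replicates and called peaks with MACS2 (2.1.1, per the submitters' processing notes). The deposited in vivo files hold, per peak, the authors' normalized score, a fold enrichment ratio and a −log10 q-value. The deposited culture files hold the score alone. The score totals were nearly equal between lists, the lowest score was 3 in each, and the lowest −log10 q kept ran from 4.21 (W2) and 5.74 (W6) to 9.37 (W1), 10.1 (W12) and 14.5 (D0), so a score of 3 was not equal evidence. Read depth is unknown, and precision between replicates could not be had.

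Peaks were merged at 1 bp of overlap (Python 3.11.15, pandas 2.3.3, pysam 0.24.0, SciPy 1.17.1), and a region took its highest score in a list. TSSs were those of protein-coding genes in GENCODE's basic annotation on GRCm38. The members, gene lists and consensus sequences were chosen with earlier results of these data known. Named regions were the 10 with the highest lowest score over D0, W2, W6 and W12, up to 4 per gene list by the same order, the 5 genes with most members, the Sox9 locus, regions beside the threshold, and 5 members with a consensus for their sequence. A further 4 with SOX letters were added, and 1 more that the same order names is not reported here. Shares carry 95% Wilson and differences 95% Newcombe intervals. Scripts were tested on simulated data. Alternatives changed the score or q minimum, list length, merging distance, distance to W1 peaks, chromosomes, TSS limit, window and noDOX score.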

Additional observations from a re-analysis of the deposited data

How the results depend on the processing

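The number of members (3254) stayed within 1.5 times under every alternative, from 2514 to 3251, but the regions were not all the same: 1062 of 2514 with a score of at least 5 overlapped a member, as did 1581 of 2517 with a common minimum of −log10 q (14.5) and 2489 of 2548 with lists of equal length. The share missing at W1 was 8.78% with the common minimum, 7.17% with equal lists and 7.57% with no W1 peak within 500 bp. Under the common minimum, 5.52% of members lay within 1 kb of a TSS, 54.1% had a noDOX peak, 8.9% a SOX and 0.636% a CTCF consensus. With equal lists these were 6.12% (TSS), 53.8% (noDOX) and 0.942% (CTCF), and 32.5% held an AP1 consensus. With a score of at least 5, 58% had a noDOX peak, 31.7% an AP1 and 1.27% a CTCF consensus, and the median lowest score was 6.49. Within 5 kb, 18.7% had a TSS. Scanning the full region gave 18% for SOX, 43.9% for AP1 and 26.2% for GATA, and a noDOX score of at least 5 gave 40%. The full-region shares are given for members alone, so the motif differences between classes rest on the central window. The members' SOX share (7.03 to 8.9%) stayed above that of static regions (2.83 to 3.14%) and of regions missing at D0 only (3.33 to 4.58%). This held under all alternatives that changed the lists, the merging or the chromosomes. Under the common minimum, however, the share missing at D0 only (4.49%) came from 89 regions and is imprecise. The CTCF gap to regions missing at D0 only shrank to 0.636% against 1.12% under the common minimum, where the 89 such regions left were too few to size it. The causes were not tested. No paired analysis was possible because the authors joined both replicates before calling peaks, and for the same reason no replicate could be left out.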
